A study of Mus musculus with 36 samples.

Results

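The collagen genes were taken as all genes whose symbol is Col, a number, the letter a and a number, with Col17a1 set aside. This gave 41 of the 21705 genes in the table. Of these, 11 encode fibrillar collagens, 6 encode the type IV chains of basement membranes and 24 encode other types. Col6a3, another type VI gene, was not among the 41. RNA sequencing covered 36 libraries of mouse bladder tumours and tumour cell lines. The line-derived tumours were 4 of UPPL1541, 2 of BBN963 and 4 of MB49, a widely used mouse bladder cancer line. The UPPL1541 tumours carry the UPPL genotype, whose label includes Upk3a-CreERT2, p53f/f and Rosa26LSL-Luc among its alleles, and are labelled untreated. The BBN963 and MB49 tumours have the genotype label Ctrl and are labelled untreated too. The primary tumours were 9 UPPL tumours of the same genotype, untreated, in which a uroplakin promoter drives the recombinase, and 11 BBN tumours of genotype Ctrl, given N-butyl-N-(4-hydroxybutyl)nitrosamine, a bladder carcinogen. The cultures were 1 each of UPPL1541, BBN963 and MB49 and 3 named KT1044, KT1970 and KT1975, all untreated. The label of the UPPL1541 culture gives the genotype as Ctrl, unlike that of its tumours. Each line-derived group comes from 1 line, and neither age, strain nor the site of growth in the host is given in the sources used here.

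Collagens are proteins of the extracellular matrix in which 3 alpha chains wind into a triple helix. Fibrillar collagens assemble into the fibrils that give connective tissue its tensile strength, and in the bladder wall they are made mainly by fibroblasts and smooth muscle. Type IV collagen forms the sheet-like network of basement membranes under the urothelium and around vessels and muscle. The other types include the beaded filaments of type VI, the anchoring fibrils of type VII, the networks of types VIII and X, proteins that sit on fibrils, membrane-spanning collagens, and types XV and XVIII of the basement membrane zone.

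Values are gene estimates that the authors scaled so that the 75th percentile of each library's values above 0 lies near 1000, and they are called units here. Library depth, recovered from the steps between low values, was 9290000 to 17930000 reads, and 21 to 38 of the 41 collagen genes were above 0 in a library. The most frequent low value in a library stood for 2 to 19 reads in tumours and for 1 read in cultures, although collagen values of 1 read also occurred in tumours, such as Col13a1 in BBN963_1. The summed epithelial markers Epcam, Cdh1, Krt5 and Krt8 were 133236 to 152901 units in UPPL1541 tumours, 145460 and 149156 in BBN963 tumours, 8061 to 13422 in MB49 tumours, 63933 to 349572 in primary tumours and 71526 to 127436 in 5 cultures. The MB49 culture had 2327 units, with 1 of the 4 epithelial markers at 0. In bulk RNA, fewer cells of a type and less RNA per cell cannot be told apart.

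The 150 bases before the start are shown for 4 collagen genes of the fibrillar and type IV classes described below. Col1a2 and Col3a1 stood furthest above cultures in line-derived tumours. Col4a1 and Col4a2 are neighbours on opposite strands whose levels were high in the cultures other than that of BBN963, which had 397 and 689 units. The sequences are RefSeq entries on GRCm38.p6, 5′ to 3′ on the gene's strand, at chr6:4505468-4505617 on the + strand for Col1a2, chr1:45311388-45311537 on the + strand for Col3a1, chr8:11312827-11312976 on the - strand for Col4a1 and chr8:11312655-11312804 on the + strand for Col4a2. Capitals mark matches to 3 motifs searched on both strands: the CCAAT box, the TATA box, spelled TATAAA, and the GC box, spelled GGGCGG.
Col1a2: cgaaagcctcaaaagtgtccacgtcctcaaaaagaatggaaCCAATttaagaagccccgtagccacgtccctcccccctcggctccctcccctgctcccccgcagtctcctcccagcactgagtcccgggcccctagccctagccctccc
Col3a1: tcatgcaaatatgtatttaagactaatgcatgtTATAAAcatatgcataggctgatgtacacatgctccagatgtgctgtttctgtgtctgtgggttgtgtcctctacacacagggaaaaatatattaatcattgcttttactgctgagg
Col4a1: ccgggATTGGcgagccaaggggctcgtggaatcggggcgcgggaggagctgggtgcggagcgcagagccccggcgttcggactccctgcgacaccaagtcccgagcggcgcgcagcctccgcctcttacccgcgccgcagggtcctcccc
Col4a2: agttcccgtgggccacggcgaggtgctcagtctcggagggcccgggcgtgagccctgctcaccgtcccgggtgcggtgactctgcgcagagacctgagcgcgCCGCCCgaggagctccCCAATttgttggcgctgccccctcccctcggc
In Col1a2 the CCAAT motif began at -109 from the start, and in Col3a1 TATAAA began at -117. In Col4a2 CCAAT began at -32, with the reverse complement of GGGCGG at -48. Col4a1 held the reverse complement of CCAAT at -145. Of the 33 collagen genes with an entry, 7 held CCAAT, 3 held TATAAA and 19 held GGGCGG, which is 21.2%, 9.1% and 57.6%, against 27.7%, 8.9% and 31.3% of all 27025 genes. The GGGCGG and CCAAT matches do not overlap. Several collagen genes lie next to each other on the mouse genome: Col3a1 with Col5a2 and Col4a3 with Col4a4 on chromosome 1, Col6a1 with Col6a2 on 10, and Col4a5 with Col4a6 on X.

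Which collagen class was the most abundant differed by kind of sample. Per kb of transcript, fibrillar genes held 74.8% to 80.1% of the collagen signal in UPPL1541 tumours, 77.6% and 80.2% in BBN963 tumours, and 25.8% to 62.8% in MB49 tumours. In cultures of the same lines they held 0.382%, 0.794% and 3.30%, and in the 3 KT cultures 12.4% to 22.0%. All 10 line-derived tumours were therefore above all 6 cultures. Primary tumours spread from 0.894% through a median of 19.3% to 63.3% and overlapped both. The type IV chains held 1.93% to 4.00% in UPPL1541 tumours, 2.72% and 3.05% in BBN963 tumours, 8.72% to 22.8% in MB49 tumours and 12.2% to 56.9% in primary tumours, against 6.43% to 49.3% in cultures. The 41 collagen genes together made up 0.665% to 3.31% of the whole signal in UPPL1541 tumours and 0.816% and 1.26% in BBN963 tumours. Their share was 0.558% to 1.54% in MB49 tumours and 0.053% to 0.751% in primary tumours, against 0.151% to 0.386% in cultures. The gene with the highest level per kb was Col3a1 in 4 of 4 UPPL1541 tumours, Col1a2 in 2 of 2 BBN963 tumours, Col18a1 in 3 of 4 MB49 tumours, Col18a1 in 8 of 9 UPPL primary tumours and Col3a1 in 6 of 11 BBN primary tumours. In cultures it was Col18a1 in all but that of UPPL1541, where it was Col8a1.

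**Figure D1:**
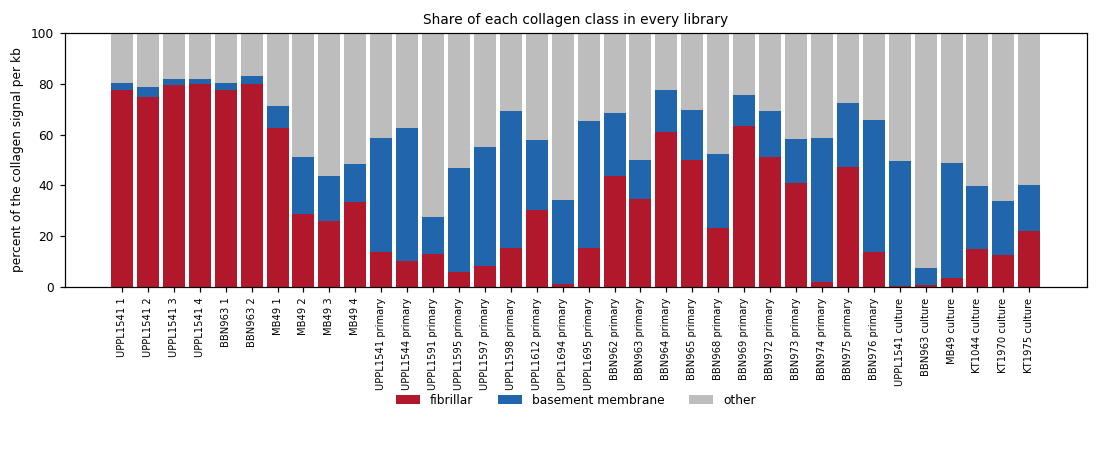
Stacked bars give each class's percent of the collagen signal per kb of transcript in every library, with line-derived tumours on the left, primary tumours in the middle and cultures on the right. Fibrillar genes held 74.8% to 80.2% in the UPPL1541 and BBN963 tumours and at most 22.0% in the cultures.

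Line-derived tumours were compared with cultures of their own lines, which asks how collagen RNA differs between a line grown as a tumour and in a dish. Of the 41 collagens, 34 passed the filter on low values, and 19 rose while 0 fell. The other 7 were Col6a6, Col9a1, Col9a2, Col19a1, Col22a1, Col25a1 and Col28a1, each at 0 at the median of line-derived tumours and of cultures and reaching at most 17.2 units in a line-derived tumour, for Col22a1. Over all 14321 genes tested, 29.1% were called, 20.1% higher and 8.99% lower. Without adjustment at 0.05, 1 collagen was lower, and edgeR's quasi-likelihood test on recovered reads called 18 higher and 1 lower. The median log2 difference was 2.62 over the collagens tested, or 2.32 with genes at 0 in all cultures set at their bound, and 0.13 over all genes. The 19 calls included 8 of 11 fibrillar, 0 of 6 type IV and 11 of 17 other collagens tested. Of the type IV chains, 1 was lower without adjustment and with edgeR.

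Type I collagen, the main fibril of scar and connective tissue, is built from Col1a1 and Col1a2. Col1a1 had 49411, 10711, 52982 and 72959.8 units in UPPL1541 tumours, 36115 and 26033 in BBN963 tumours and 27432, 4348, 2997 and 6143 in MB49 tumours, against 8.40, 23.1 and 21.2 in the UPPL1541, BBN963 and MB49 cultures. Every tumour lay far above the culture of its line, and the log2 difference was 10.18 ± 0.74 (SE), adjusted p = 4.58e-07. Col1a2 had 68873, 20965, 82305 and 110929 units in UPPL1541 tumours, 48066 and 33832 in BBN963 tumours and 34966, 4509.5, 3931 and 7332 in MB49 tumours, against 0.934, 2.43 and 1.93 in the UPPL1541, BBN963 and MB49 cultures. Those culture values rest on 1 or 2 reads. The ratio of mean tumour to culture was 75800 for UPPL1541 (95% counting interval of the culture's reads 13600 to 2990000), 16800 for BBN963 (4660 to 139000) and 6580 for MB49 (1820 to 54300).

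Col3a1, the single chain of type III collagen that mixes with type I in soft tissue, had 116579, 37093, 126554 and 162988 units in UPPL1541 tumours, 28198 and 24779 in BBN963 tumours and 41371, 8049, 6036 and 11523 in MB49 tumours, against 1.87, 0 and 0 in the UPPL1541, BBN963 and MB49 cultures. The groups were wholly apart, and the adjusted p was 6.64e-10. Measured against a floor of 3 reads in the culture, the tumour mean was at least 7258-fold higher in BBN963 and at least 5792-fold higher in MB49, and for UPPL1541 the ratio was 59300 (16400 to 490000, 2 culture reads). Type V collagen is incorporated into type I fibrils and limits their width. Its chain Col5a2 had 8847, 2718, 10769 and 12033 units in UPPL1541 tumours, 8029 and 4766 in BBN963 tumours and 9653, 1519.6, 1304 and 2209 in MB49 tumours, against 9.34, 0 and 0 in the UPPL1541, BBN963 and MB49 cultures. Col5a2 was at least 1753-fold higher in BBN963 tumours and at least 1270-fold higher in MB49 tumours than in their cultures, adjusted p = 6.54e-08 over the lines.

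Col5a1 was the fibrillar gene with the highest culture value among these lines, 1056 units in the MB49 culture. It had 18450.4, 3629.7, 16695 and 22749.6 units in UPPL1541 tumours, 7399.7 and 3446 in BBN963 tumours and 7933, 2389, 1929 and 2159 in MB49 tumours, against 57.9, 43.8 and 1056 in the UPPL1541, BBN963 and MB49 cultures. Each tumour was above its own culture, and the log2 difference was 5.27 ± 0.94, adjusted p = 0.00114. The interaction of line and tumour against culture had an adjusted p of 0.0118 for Col5a1. Each line has 1 culture, which such a test assumes to vary like the tumours, and the MB49 culture stood above the other two. Col5a3, Col24a1 and Col27a1 also rose, by 5.67, 4.64 and 3.42 on the log2 scale. The cartilage collagens Col2a1, Col11a1 and Col11a2 did not pass.

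**Figure D2:**
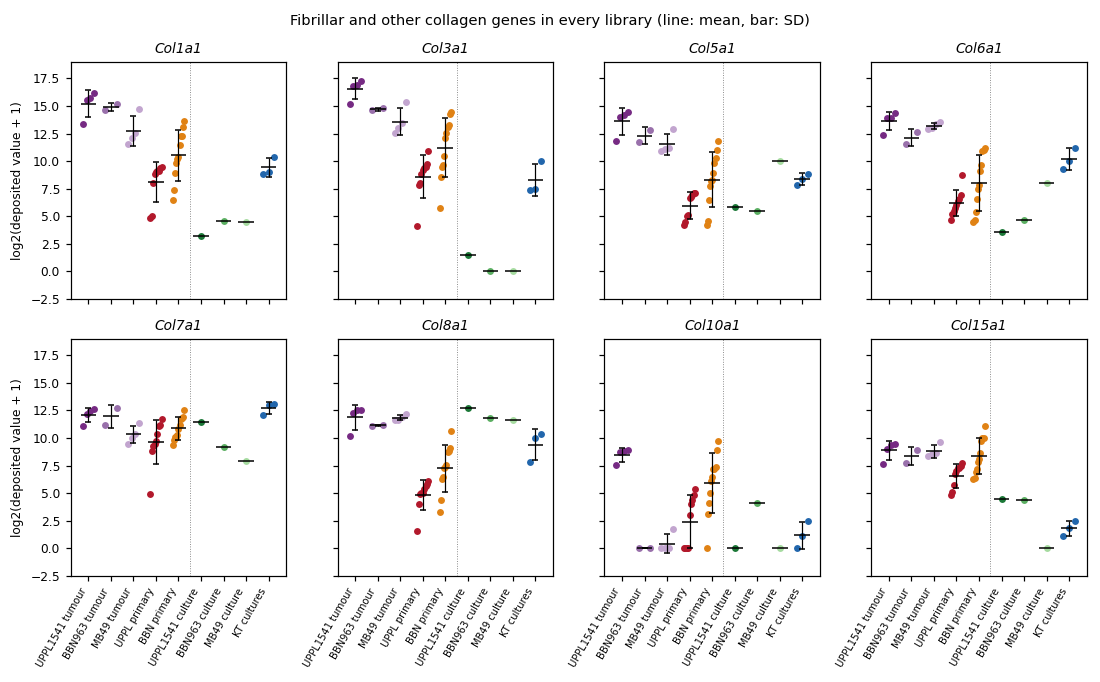
Dots give log2(deposited value + 1) of 8 collagen genes in every library, with lines at the mean and bars for the SD of groups with more than 1 library, and a dotted line between tumours and cultures. Col1a1 and Col3a1 of the UPPL1541, BBN963 and MB49 cultures lie below all of the tumours of those lines, whereas the 3 KT cultures had 464 to 1345 units of Col1a1.

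The basement membrane class differed from this. Col4a1 and Col4a2 form the common type IV network found in nearly every basement membrane. Col4a1 had 5309, 2012, 4634 and 5229 units in UPPL1541 tumours, 2411 and 1553 in BBN963 tumours and 13068, 13489, 10080.0 and 10219 in MB49 tumours, against 7356, 397 and 8486 in the UPPL1541, BBN963 and MB49 cultures. Tumours thus lay below the culture in UPPL1541 and above it in BBN963 and MB49, and the pooled log2 difference was 0.52, adjusted p = 0.389. The interaction with line, again with 1 culture a line, had an adjusted p of 0.0169 for Col4a1. Col4a2 had 3061, 980.4, 3171 and 3532 units in UPPL1541 tumours, 1928 and 1487 in BBN963 tumours and 5947, 5825, 4130.1 and 3951 in MB49 tumours, against 7634, 689 and 5991 in the UPPL1541, BBN963 and MB49 cultures. Tumours were below the culture in UPPL1541 and MB49 and above it in BBN963, with a pooled log2 difference of -0.31 that did not pass. Per kb, the ratio of Col4a1 to Col4a2 was 2.14 to 2.52 in MB49 tumours and 1.38 in the MB49 culture, 1.43 to 2.00 in UPPL1541 tumours and 0.94 in their culture, and 1.02 and 1.22 in BBN963 tumours and 0.562 in their culture. That ratio was higher in every one of the 10 tumours than in the culture of its line; it was not tested.

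Col4a3 and Col4a4 encode chains of the network of kidney glomeruli and lung. Col4a3 had 23.9, 2.61, 24.8 and 11.9 units in UPPL1541 tumours, 22.8 and 0 in BBN963 tumours and 0, 1.12, 0 and 0 in MB49 tumours, against 854, 4.87 and 2.89 in the UPPL1541, BBN963 and MB49 cultures. The gap was wide in UPPL1541 alone of these lines, and the adjusted p was 0.0822. Under quantile normalization 4 collagens were called lower, namely Col2a1, Col4a3, Col4a4 and Col9a3, and 17 higher. That scaling moved the median gene to -0.16 and the share of higher calls over all genes to 45.4%, against 0.13 and 69.1% as deposited. Col4a5 and Col4a6, which lie side by side on the X chromosome and pair in smooth muscle and skin basement membranes, gave log2 differences of 0.02 and 1.15 and did not pass.

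**Figure D3:**
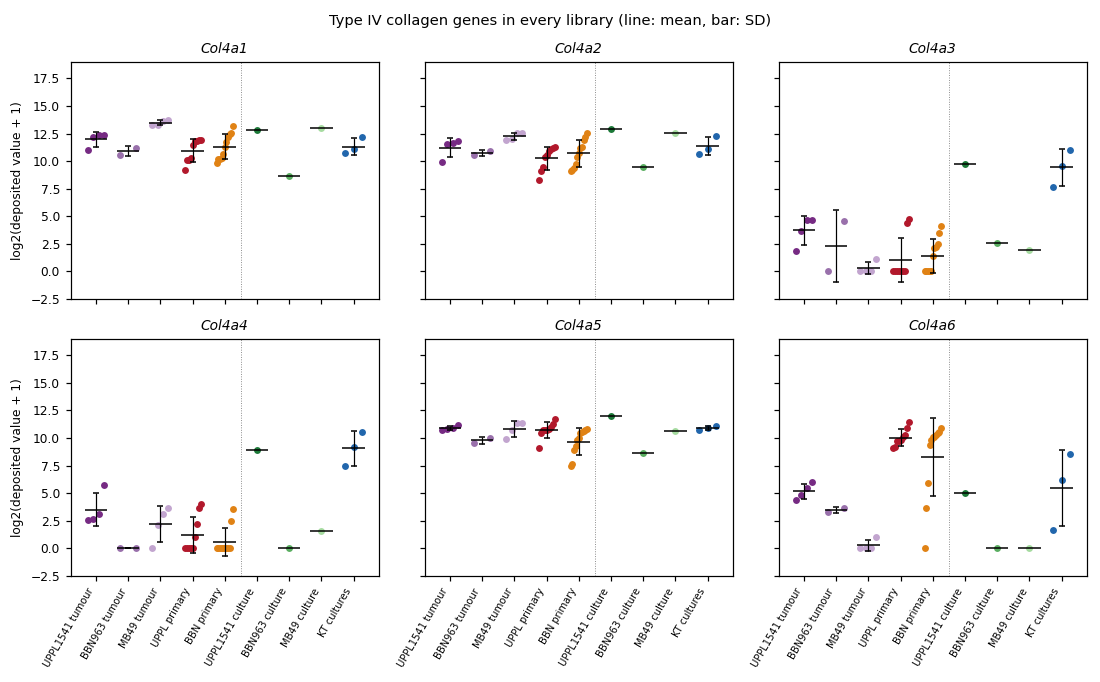
Dots give log2(deposited value + 1) of the 6 type IV collagen genes in every library, with lines at the mean and bars for the SD of groups with more than 1 library, and a dotted line between tumours and cultures. Col4a3 and Col4a4 were highest in the UPPL1541 and KT cultures, with 173 units or more, and the highest Col4a6 values were those of primary tumours.

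Among the other types, type VI collagen, the beaded filaments around cells, followed the fibrillar genes in direction. Col6a1 had 15562, 5378, 15225 and 20666 units in UPPL1541 tumours, 6596 and 3086 in BBN963 tumours and 10444, 7810.3, 8118 and 11667 in MB49 tumours, against 11.2, 24.3 and 255 in the UPPL1541, BBN963 and MB49 cultures. No tumour value came near a culture value, and the log2 difference was 7.57 ± 0.65, adjusted p = 2.29e-06. Col6a2 rose by 8.55 on the log2 scale. Col12a1, which sits on type I fibrils, had 15977, 3112, 15127 and 18565 units in UPPL1541 tumours, 10311 and 5169 in BBN963 tumours and 11191, 1061, 1281 and 2502 in MB49 tumours, against 2448, 1910.0 and 103 in the UPPL1541, BBN963 and MB49 cultures. It rose by 2.94, adjusted p = 0.00892, and lost the call only without the MB49 culture among the 13 libraries left out in turn.

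Col7a1, the anchoring fibril that ties the epithelial basement membrane to the matrix, was already high in the UPPL1541 culture. The BBN963 and MB49 cultures lay below every tumour of their line. It had 6178, 2207, 4565 and 5747 units in UPPL1541 tumours, 6642 and 2366 in BBN963 tumours and 2638, 722, 1357 and 1043 in MB49 tumours, against 2737, 585 and 247 in the UPPL1541, BBN963 and MB49 cultures. The UPPL1541 culture lay within the range of its tumours, and the log2 difference was 1.88, adjusted p = 0.00937, not passing without the BBN963 or the MB49 culture. Col18a1, the source of endostatin, had 4599.8, 1683, 2677 and 3069 units in UPPL1541 tumours, 3124 and 3154 in BBN963 tumours and 17279.9, 17140.3, 19037 and 18357 in MB49 tumours, against 6686, 12120.4 and 10951 in the UPPL1541, BBN963 and MB49 cultures. MB49 tumours were above their culture and the others below theirs. The pooled log2 difference was -0.76, adjusted p = 0.149, and the interaction with line, with 1 culture a line, had an adjusted p of 0.0113. Its relative Col15a1 rose by 5.85, and in MB49 tumours it was at least 165-fold above a culture at 0. Col23a1, Col14a1, Col8a2 and Col16a1 rose by 5.77, 5.40, 4.48 and 2.36. Col13a1, a transmembrane collagen at 0 in every culture, was at least 3.32-fold higher in the tumours, and Col6a4 rose by 2.28. Col13a1 and Col6a4 each lost the call without 1 of several libraries, the MB49 and UPPL1541 cultures among them.

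Fibroblast, endothelial, smooth muscle, pericyte, leukocyte and epithelial markers were each higher in every line-derived tumour than in the culture of its line. Other lists, skeletal muscle and Schwann cell markers among them, varied by line. The 4 smooth muscle markers summed to 91.26 to 1812.5 units in the 10 tumours, against 8.40, 8.52 and 0 in the UPPL1541, BBN963 and MB49 cultures. The 7 fibroblast markers summed to 21237 to 86297 units in UPPL1541 tumours, 9811 and 26223 in BBN963 tumours and 6466 to 35779 in MB49 tumours, against 91.5, 73.0 and 983 in the UPPL1541, BBN963 and MB49 cultures, where 4, 4 and 5 of them were at 0. The 4 endothelial markers summed to 501 to 2904 units in the 10 tumours and to 15.8 to 49.5 in the 3 cultures. The 4 skeletal muscle markers reached 3704 to 11708 units in MB49 tumours, against 5.78 in the MB49 culture. They summed to 29.2 and 6656 in BBN963 tumours and 0 to 392 in UPPL1541 tumours, against 8.52 and 4.67 in those cultures. The 4 Schwann cell markers summed to 15.2 and 12.25 units in BBN963 tumours, below 18.25 in the culture. They summed to 5.95 to 26.1 in UPPL1541 and 28.1 to 69.9 in MB49 tumours, against 6.54 and 9.64 in those cultures. The part of these cells in the collagen differences was not tested.

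**Figure D4:**
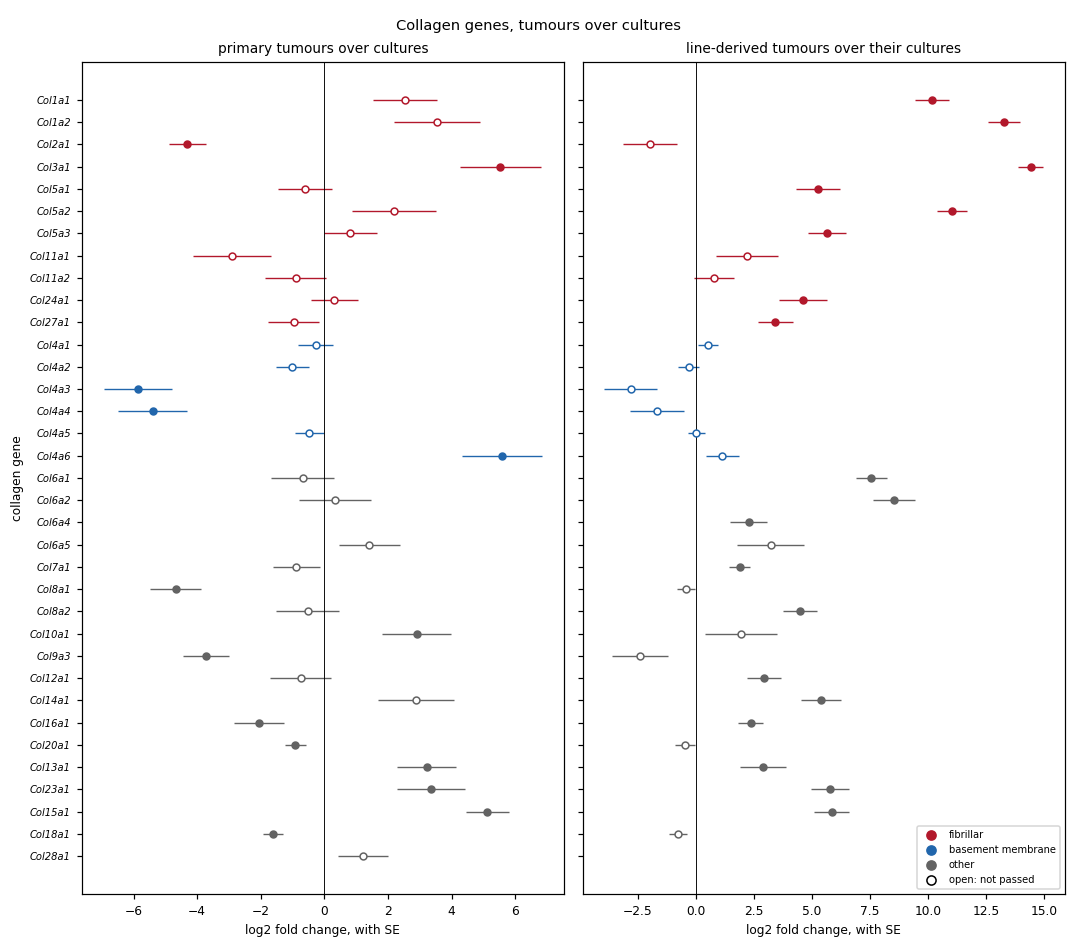
Points give the log2 fold change of each collagen gene tested, tumours over cultures, with its SE, for primary tumours on the left and line-derived tumours on the right, and filled points passed an adjusted p of 0.05. In line-derived tumours 19 genes lie to the right of 0 with a filled point and 0 to the left, against 6 and 8 for primary tumours.

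Primary tumours were compared with all 6 cultures, giving the UPPL and BBN means equal weight. Of the 34 collagens tested, 6 were higher and 8 lower, against 27.8% of all 14587 genes called, 14.5% higher and 13.3% lower. The median log2 difference was -0.50 over the collagens and -0.02 over all genes. The calls were spread over the classes, with 1 higher and 1 lower of 11 fibrillar, 1 higher and 2 lower of 6 type IV, and 4 higher and 5 lower of 17 other collagens. Without the 3 KT cultures the calls were 9, of which 6 were among the 14.

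Of the fibrillar genes, Col3a1 had 16.0 units at the lowest, 752 at the median and 22427 at the highest in primary tumours, against 0, 81.8 and 1014 in cultures. The ranges overlapped through the KT cultures at 1014, 162 and 180.4 units, and the log2 difference was 5.53 ± 1.27, adjusted p = 0.00212. Col1a1 had 28.1, 612 and 12831 units in primary tumours, against 8.40, 244 and 1345 in cultures, and did not pass, with a log2 difference of 2.54 and an adjusted p of 0.0595. Col1a2 likewise did not pass at 3.55, adjusted p = 0.0508. Both passed without any 1 of the 3 KT cultures. Col2a1, the collagen of cartilage, was at 0 at the median and 9.01 at the highest in primary tumours, against 1.93, 24.7 and 103 in cultures, and it fell by 4.31 on the log2 scale, adjusted p = 4.27e-06. Col2a1 entered the test through cultures alone, which favours a lower call. Without the 3 KT cultures it did not pass the filter on low values and was not tested.

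The type IV genes moved in both directions. Col4a6 had 0, 998 and 2739 units in primary tumours, against 0, 17.0 and 369 in cultures. The low primary values were BBN963, BBN962 and BBN972 at 0, 11.4 and 58.4 units, and all others were above every culture. The log2 difference was 5.58 ± 1.26, adjusted p = 0.00174. Col4a3 was at 0 at the median and 26 at the highest in primary tumours, against 2.89, 477 and 2106 in cultures, and fell by 5.87 ± 1.08, adjusted p = 0.000237. Col4a4 fell by 5.40, adjusted p = 0.000598. The high culture values of Col4a3 were 854 units in UPPL1541 and 2106, 749 and 205 in KT1044, KT1970 and KT1975. Without the KT cultures the adjusted p was 0.0507 for Col4a3 and 0.128 for Col4a4. Col4a1 and Col4a2 did not pass: Col4a1 had 594, 2669.8 and 9379 units in primary tumours, against 397, 3357 and 8486 in cultures.

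Of the other types, Col15a1 had 27.0, 158 and 2198 units in primary tumours, against 0, 3.53 and 20.5 in cultures, so that no value overlapped. It rose by 5.11 ± 0.68, adjusted p = 4.27e-06. Col8a1, a network collagen of vessel walls and of the cornea, had 2.00, 62.5 and 1586 units in primary tumours, against 221, 2294 and 6741 in cultures, and fell by 4.68 ± 0.79, adjusted p = 9.5e-05. Col18a1 had 875, 3671 and 6602 units in primary tumours, against 6686, 10739.9 and 17354 in cultures. Its groups did not overlap, and it fell by 1.62 ± 0.31, adjusted p = 0.000336. Col13a1 was at 0 in every culture and 11.8 units at the median of primary tumours, at least 6.41-fold higher over the group. Col13a1 entered the test through tumours alone, which favours a higher call, and so did Col23a1, at most 7.30 units in cultures. Col9a3 fell by 3.72. Col10a1, Col23a1, Col16a1 and Col20a1 passed with adjusted p between 0.0215 and 0.05, and each lost the call without 1 or more of the 6 cultures, the UPPL1541 culture for Col23a1 and a KT culture for the other 3. Col7a1 did not pass, with 30.0, 1287 and 5852 units in primary tumours against 247, 3540.0 and 8765 in cultures. Fibroblast markers summed to 363 to 13813 units in primary tumours and 73.0 to 2052 in cultures, and endothelial markers to 198 to 3127 and 3.30 to 49.5. Their part in the collagen values was not tested.

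UPPL primary tumours were compared with BBN primary tumours, the genetic and the chemical model. Of 25 collagens tested, 6 fell and 0 rose, against 18.5% of all 12818 genes called, 12.8% lower and 5.71% higher. Unadjusted, 12 were lower and 2 higher, and edgeR called 10 lower and 0 higher. The calls were Col1a1 and Col5a1 of 8 fibrillar genes and Col8a1, Col10a1, Col15a1 and Col16a1 of 13 others, and 0 of 4 type IV genes, where 1 was higher unadjusted and edgeR called 0. The median log2 difference was -2.34 over the fibrillar genes, 0.34 over type IV and -1.26 over the others, against -0.19 over all genes.

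Col1a1 had 28.1, 515 and 701 units at the lowest, median and highest in UPPL tumours, against 89.5, 1335 and 12831 in BBN tumours. All UPPL values lay below the BBN median, though BBN974, BBN976 and BBN968 lay within the UPPL range. The log2 difference was -2.45 ± 0.86, adjusted p = 0.0496. Col5a1 had 17.5, 102 and 141 units in UPPL tumours, against 17.2, 304 and 3625 in BBN tumours, a log2 difference of -2.37 ± 0.83 with an adjusted p of 0.0495. Its UPPL values again lay below the BBN median. Col1a2 and Col3a1 had differences of the same size, -2.52 and -2.62, but adjusted p of 0.0604 and 0.0621. The spread among BBN tumours was wide and shared by these genes: BBN964 had the highest and BBN974 the lowest value of Col1a1, Col1a2, Col3a1, Col5a1, Col5a2 and Col12a1. Fibrillar genes held 61.1% of the collagen signal per kb in BBN964 and 2.00% in BBN974.

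Col10a1, a network collagen best known from growth plate cartilage, had 0, 7.18 and 41.1 units in UPPL tumours, against 0, 87.4 and 824 in BBN tumours. It fell by 3.502 ± 1.10, adjusted p = 0.0301, with all UPPL values below the BBN median. Col8a1 had 2.00, 31.6 and 67.8 units in UPPL tumours, against 9.04, 159.6 and 1586 in BBN tumours, and fell by 2.42, adjusted p = 0.0319. Col16a1 and Col15a1 fell by 2.36 and 1.82. Col12a1 had 2.00, 231 and 1103 units in UPPL tumours, against 35.3, 814 and 6527 in BBN tumours, and did not pass, adjusted p = 0.0541. Col18a1 had 2883, 3787 and 6061 units in UPPL tumours, against 875, 3069.5 and 6602 in BBN tumours, with no difference past the threshold.

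The type IV genes did not follow the fibrillar ones. Col4a1 had 594, 2825 and 3837 units in UPPL tumours, against 886, 2515 and 9379 in BBN tumours, a log2 difference of -0.37. Col4a5 had 539.5, 1677 and 3307 units in UPPL tumours, against 172, 1008 and 1799 in BBN tumours, and Col4a6 had 551, 883 and 2739 units in UPPL tumours, against 0, 1112 and 1886 in BBN tumours. The groups overlapped for all 3, and the adjusted p was 0.084 for Col4a5 and 0.271 for Col4a6. The tumours BBN962 and BBN963 were lowest in both Col4a5 and Col4a6. Within a tumour, the log2 ratio of Col4a1 to Col1a1 averaged 2.86 ± 1.55 in UPPL tumours and 0.79 ± 1.73 in BBN tumours (SD, n = 9 and 11), and did not pass after adjustment over the 4 ratios tested (exact permutation test, two-sided, p = 0.0139, adjusted p = 0.0555). The ratios of Col1a1 to Col1a2, Col3a1 to Col1a1 and Col4a1 to Col4a2 differed by 0.07, -0.18 and 0.07, each with an adjusted permutation p of 0.834.

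**Figure D5:**
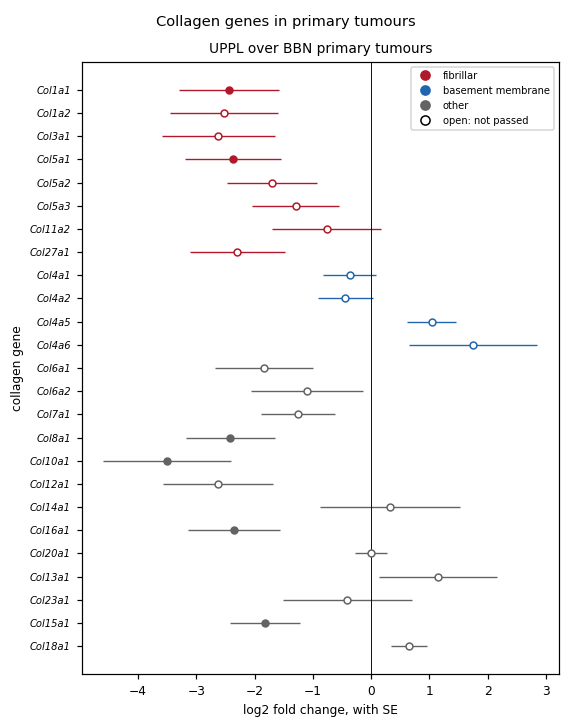
Points give the log2 fold change of each collagen gene tested, UPPL over BBN primary tumours, with its SE, and filled points passed an adjusted p of 0.05. All 8 fibrillar genes lie left of 0, where 2 passed, and the type IV genes lie on both sides with 0 passed.

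The calls of this comparison were close to the threshold. Quantile normalization, which gave a median gene of -0.03 and 50.1% of all calls higher, against -0.19 and 30.9% as deposited, left 0 collagen calls and 10 unadjusted, and median-of-ratios scaling (48.6% higher) left 3, all lower. Without the 2 primaries that share their numbers with lines, UPPL1541 and BBN963, 2 calls were left. Smooth muscle markers summed to 15.0 to 27209 units in UPPL tumours and 55.15 to 119965 in BBN tumours, with medians of 80.1 and 4528. Fibroblast markers summed to 363 to 3573 units in UPPL tumours and 371 to 13813 in BBN tumours, with no marker at 0 in all tumours of a group. The part of these cells in the collagen differences was not tested.

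The 3 kinds of line-derived tumour also differed among themselves. Between UPPL1541 and MB49 tumours, 16 of 34 collagens were higher and 3 lower, against 49.9% of all genes called, 27.3% higher and 22.6% lower. Of the fibrillar genes, 6 of 11 rose, with log2 differences of 2.47 for Col1a1, 2.88 for Col1a2, 2.98 for Col3a1 and 2.08 for Col5a1. In each of these 4 the tumour MB49_1 was the highest MB49 tumour and exceeded UPPL1541_2. Col10a1 had 444, 186, 419.7 and 470.4 units in UPPL1541 tumours, against 0, 2.24, 0 and 0 in MB49 tumours, adjusted p = 1.5e-06. It passed the filter on low values through UPPL1541 tumours alone. Col8a2 had 519, 184, 888 and 836 units in UPPL1541 tumours, against 27.1, 10.1, 6.40 and 3.497 in MB49 tumours, and rose by 5.68, adjusted p = 4.05e-05. The groups were apart for both genes. The 3 that fell were Col18a1 by 2.67, Col4a1 by 1.53 and Col4a2 by 1.02, with adjusted p of 4.31e-06, 0.00111 and 0.0328. Of the 19 calls 15 held whichever library was left out, and Col12a1, Col14a1, Col4a2 and Col6a2 did not. Each of these 4 missed the threshold without MB49_2. Fibroblast markers summed to 21237 to 86297 units in UPPL1541 tumours and 6466 to 35779 in MB49 tumours, and their part in these differences was not tested.

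The UPPL1541 tumours, where Col10a1 was high, also held the cartilage and bone markers Acan and Ibsp. The list of 4 such markers summed to 206 to 1262 units in UPPL1541 tumours, with Matn1 and Bglap at 0 in all 4, against 0 to 2.13 in MB49 tumours and 0 in both BBN963 tumours. Their part in the Col10a1 values was not tested. In BBN965, the primary tumour with the highest Col10a1 at 824 units, the list summed to 0, and it reached at most 51.1 in any primary tumour.

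Between UPPL1541 and BBN963 tumours, 11 collagens were higher and 0 lower, against 28.8% of all genes called, 21.4% higher and 7.37% lower. No collagen was lower at an unadjusted 0.05 or with edgeR either, and edgeR called 4 higher. Col10a1, at 186 to 470.4 units in UPPL1541 tumours and listed at 0 in both BBN963 tumours, had an adjusted p of 4.94e-05. Col6a4, at 9.13 to 32.3 units in UPPL1541 tumours and 0 in both BBN963 tumours, had one of 0.00181. These 2 calls held whichever library was left out, and the other 9 did not. Col10a1 passed the filter on low values through UPPL1541 tumours alone, which favours a higher call. The count was 3 without UPPL1541_1, UPPL1541_3 or UPPL1541_4, 5 without either BBN963 tumour, 6 without MB49_3 and 16 without UPPL1541_2. Quantile normalization gave 6 collagen calls, with 49.8% of all calls higher and the median gene at -0.03, and median-of-ratios scaling 5, with 59.6% higher and the median gene at 0.13, against 74.4% and 0.32 as deposited.

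Between BBN963 and MB49 tumours, 4 collagens were higher and 7 lower, against 41.9% of all genes called, 15.8% higher and 26.1% lower. The median collagen difference was -0.15, or 0.04 with genes at 0 in BBN963 tumours set at their bound, so that its sign rests on those genes. Col4a1, Col18a1 and Col5a3 fell by 2.58, 2.51 and 2.85 on the log2 scale, with adjusted p of 0.000163, 4.78e-05 and 0.00122. Col4a6 had 11.4 and 8.58 units in BBN963 tumours, against 0, 0, 1.07 and 0 in MB49 tumours, adjusted p = 0.00605. Calls of Col1a2, Col4a2, Col4a5, Col7a1, Col8a2 and Col16a1 were lost without 1 or more libraries. The count was 6 without BBN963_1, 7 without MB49_2 or MB49_3 and 16 without MB49_1.

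Line-derived tumours were then set against primary tumours of the same model. In UPPL, 22 of 35 collagens tested were higher and 1 lower, against 26.5% of all 15229 genes called, 20.5% higher and 5.98% lower. The median log2 difference was 4.59 over the collagens and 0.37 over all genes. Fibrillar genes were called higher in 9 of 10 tested, among them Col3a1 by 7.96, Col5a1 by 7.68, Col1a2 by 7.53 and Col1a1 by 7.12. For Col1a1 the UPPL1541 tumours had 10711 units or more and the UPPL primary tumours 701 or less. Col8a1, which was low in primary tumours, had 5007, 1155, 5933 and 5884 units in UPPL1541 tumours, against 2.00, 31.6 and 67.8 at the lowest, median and highest in UPPL primary tumours. It rose by 7.04, and its culture had 6741 units. Col4a6 moved the other way, with 62.1, 19.6, 27.3 and 42.9 units in UPPL1541 tumours, against 551, 883 and 2739 in UPPL primary tumours. It fell by 4.87, adjusted p = 0.00873, and its culture had 31.7 units. For both genes the line-derived and primary tumours were apart. Calls of Col4a4, Col7a1, Col14a1 and Col15a1 were each lost without UPPL1541_1, UPPL1541_3 or UPPL1541_4. Fibroblast markers summed to 21237 to 86297 units in UPPL1541 tumours and 363 to 3573 in UPPL primary tumours, and to 9811 and 26223 in BBN963 tumours and 371 to 13813 in BBN primary tumours. Their part in the collagen differences was not tested.

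In BBN, 3 of 35 collagens were higher and 1 lower, against 7.76% of all genes called, 2.09% higher and 5.67% lower. Col1a1, Col24a1 and Col8a1 rose by 4.37, 4.62 and 3.88, with adjusted p of 0.0481, 0.0172 and 0.0475. Col10a1 was listed at 0 in both BBN963 tumours, against 0, 87.4 and 824 units in BBN primary tumours, adjusted p = 0.0328. The count fell to 0 without either BBN963 tumour, where 5 and 9 collagens had an unadjusted p under 0.05, and to 2 without UPPL1541_1, UPPL1541_3 or UPPL1541_4. The difference between the models was itself past the threshold for 1 of 35 collagens, Col10a1, with an adjusted p of 0.00145, against 9.22% of all genes. Both comparisons used the scaling as deposited: in UPPL the share of higher calls over all genes was 77.4%, 48.8% under quantile normalization and 64.7% with median-of-ratios scaling, and in BBN 26.9%, 36.3% and 38.6%. The collagen calls under those scalings were 19 higher with 1 lower and 21 with 1 in UPPL, and 5 with 0 and 4 with 1 in BBN.

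The genes that make, trim, bind and sense collagen were described from 5 lists. Over all genes, 20.1% were called higher and 8.99% lower in line-derived tumours against cultures. Between line-derived tumours and cultures, 9 of 11 proteins that bind fibrils rose, among them Postn by 11.00, Bgn by 10.81, Lum by 10.11 and Dcn by 9.22 on the log2 scale, and 0 fell, also unadjusted and with edgeR. Dcn, Lum and Postn are also in the fibroblast list. Of 13 genes that trim and crosslink procollagen, 8 rose and 1 fell. Lox and Loxl1, which crosslink fibrils, rose by 7.97 and 7.66, Pcolce, which aids removal of the C-terminal propeptide, rose by 4.80, and Loxl4 fell by 2.72. Of 17 genes for modification and folding, 5 rose and 0 fell, with 2 lower unadjusted and 0 lower with edgeR. P4ha3, Creb3l1 and Fkbp10 rose by 5.06, 6.83 and 4.10, while P4ha1, the main prolyl 4-hydroxylase subunit, did not pass, nor did the collagen chaperone Serpinh1, adjusted p = 0.0836. Of 9 receptors, 5 rose and 1 fell. Mrc2 and Lair1 rose by 7.96 and 7.98 and Ddr2 by 2.95, and the epithelial integrin chain Itga2 fell by 4.03. Of 11 basement membrane partners, 4 rose, with Lama4 at 7.67, Nid2 at 6.26 and Nid1 at 4.11, and 2 fell, Lama5 by 2.06 and Agrn by 1.34. The list medians were 6.62, 3.47, 0.56, 1.98 and 0.12 in this order, against 0.13 over all genes.

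Between primary tumours and cultures, 14.5% of all genes tested were called higher and 13.3% lower. Modification genes had 0 higher and 6 lower of 18, with 0 higher unadjusted and with edgeR. Plod2, a lysyl hydroxylase of fibrillar collagen, fell by 5.29, Plod3 by 1.05 and P4ha1 by 1.37. The trimming list had 1 higher and 4 lower of 13, with the procollagen C-proteinase Bmp1 lower by 1.53. The fibril-binding list had 2 higher and 1 lower of 11, with Postn and Bgn higher by 5.67 and 4.09, and receptors had 2 higher and 1 lower of 8, with Lair1 and Itga1 higher by 4.92 and 3.75. Partners had 2 higher and 5 lower of 11, with Lama4 and Nid2 higher by 5.39 and 4.98 and Hspg2, the perlecan core protein, and Lamb1 lower by 2.87 and 2.55. The medians were -0.55 for modification, -1.47 for trimming, 2.00 for fibril binding, 0.22 for receptors and -0.06 for partners.

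Between UPPL and BBN primary tumours the lists held 6 calls, all lower, against 18.5% of all genes called, 12.8% lower and 5.71% higher. These were Pcolce by 2.18, Pxdn by 2.70, Loxl1 by 3.80 and Bmp1 by 1.13 of 9 trimming genes, the prolyl 3-hydroxylase Lepre1 by 1.98 of 17 modification genes, and Hspg2 by 1.19 of 10 partners. The 9 fibril-binding genes and 7 receptors had 0 calls with limma, 4 and 1 lower unadjusted, and 2 and 0 lower with edgeR. The list medians were -2.12 for trimming, -0.52 for modification, -0.22 for partners, -1.47 for fibril binding and -0.38 for receptors, against -0.19 over all genes.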

How the data were processed

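Per the file header and labels, total RNA (RNeasy) was made into TruSeq Stranded mRNA libraries; the submitters' processing notes name RSEM, SAMtools, Picard 1.64 and mm9 without roles. The authors deposited 1 gene table in which the signal of each library is scaled to a 75th percentile of about 1000 over values above 0. Reads were recovered from the steps of low values, with 92.0% to 96.3% of values whole within 0.02. The remaining values were fractions and were rounded, and in some libraries the lowest values held fractions. The collagen genes and lists were chosen with earlier results of these data known.

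Values were taken as log2(value + 1), kept where at least 10 units (1% of the median upper quartile) were reached in as many libraries as the smallest group (3 for cultures), and tested with limma 3.58.1 (trend, all genes, Benjamini-Hochberg, 0.05). Fold changes are on that scale and understate low genes. A gene under 10 units throughout 1 side entered a test through the other side alone, which favours a call of that side as higher. This holds for Col1a2, Col3a1, Col5a2 and Col13a1 in line-derived tumours against cultures, among others. Line was a term for line-derived tumours against cultures, and groups of other comparisons had their own means; line-derived contrasts shared a fit over 10 tumours, and line-derived against primary tumours one over 26. The interaction tests and edgeR 4.0.16 on recovered reads were added after seeing the data. Levels per kb used the longest protein-coding GENCODE transcript of each gene. Counting intervals and floors (3 reads of the library) cover counting error only. Nothing in the labels says that line-derived tumours came from separate animals, so p-values measure the spread between these samples. Every collagen could be named; values are given for the main chains and for the largest rise and fall of a class. Counts per list replace set tests. Samples with the same replicate number did not deviate together (correlations -0.093 to 0.066). Tests were tried on simulated data. A further item of the UPPL genotype is not reported here. R 4.3.3 and Python 3.11.15 were used.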

Additional observations from a re-analysis of the deposited data

Results flagged for a closer look

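In 12 of 48 tests of a group's highest or lowest library, 1 library stood apart from the rest of its group, which chance gives in about 1 of 20. The tests reuse the same libraries, so they are not independent. Only UPPL primary, UPPL1541 and MB49 tumours were tested in this way. The 11 BBN primary tumours, the 2 BBN963 tumours and the cultures were not, so nothing is said here of stray libraries among them. UPPL1694 was the lowest UPPL primary tumour for Col1a2 at 3.169 on the log2(value + 1) scale with the next at 7.414, for Col3a1 at 4.086 with the next at 7.847, for Col5a2 at 4.699 with the next at 6.496, and for Col7a1 at 4.953 with the next at 8.809. UPPL1591 was the lowest UPPL primary tumour for Col4a5, at 9.078 with the next at 10.5. UPPL1541_2 was the lowest UPPL1541 tumour for Col5a1 at 11.826, Col4a1 at 10.975, Col4a2 at 9.939 and Col12a1 at 11.604, with the next at 14.027, 12.178, 11.58 and 13.885. MB49_1 was the highest MB49 tumour for Col5a1, at 12.954 with the next at 11.223. MB49_3 was the highest for Col4a6, at 1.047 with the others at 0. That value stood for 1 read, and any value above 0 beside zeros would be flagged. UPPL1612 had the highest fibrillar share of the collagen signal per kb among UPPL primary tumours, 30.379% with the next at 15.356%.

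The tumour against culture difference itself differed between UPPL1541, BBN963 and MB49 for 10 of 34 collagens, against 21.7% of all genes. Each line has 1 culture, which the test assumes to vary like the tumours. The adjusted p of this interaction was 0.000481 for Col10a1, 0.00166 for Col6a2, 0.00253 for Col5a3, 0.00549 for Col6a1, 0.0113 for Col18a1, 0.0115 for Col15a1, 0.0118 for Col5a1, 0.0167 for Col27a1, 0.0169 for Col4a1 and 0.0246 for Col16a1. For Col6a2 the log2 difference was larger by 6.99 in UPPL1541 and by 3.61 in BBN963 than in MB49, with 1.87 units in the UPPL1541 culture. The difference between line-derived and primary tumours differed between UPPL and BBN for Col10a1, adjusted p = 0.00145. Col10a1 was listed at 0 in both BBN963 tumours, so the size of that difference depends on the pseudocount and is not given.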

How the results depend on the processing

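Under the alternatives no called collagen difference and no ratio changed direction, and 1621 values of single called collagens kept their call and 329 lost it. The following are the counts that moved over 1.5-fold and, whether or not they did, the ranges with 1 library left out. For primary tumours against cultures, 9 calls without the 3 KT cultures, and 11 to 15 with 1 culture left out, against 14. For line-derived tumours against cultures, 17 to 20 with 1 left out, against 19. For UPPL against BBN primary tumours, against 6 calls, 3 with no filter, 0 with quantile normalization (10 unadjusted), 3 with median-of-ratios scaling, 11 in a fit over all 36 libraries, 2 without the 2 primaries sharing a line's number, 10 with edgeR, and 0 (9 unadjusted) without the libraries whose most frequent low value stood for 10 reads or more, an alternative chosen, like edgeR, after seeing the data. For UPPL1541 against MB49, against 19, 8 over all 36 libraries and 15 to 22 with 1 left out. For UPPL1541 against BBN963, against 11, 6 with quantile normalization, 5 with median-of-ratios scaling, 5 with no trend, 2 over all libraries, 4 with edgeR, 4 without those libraries and 3 to 16 with 1 left out. For BBN963 against MB49, against 11, 7 with no trend, 3 over all libraries and 6 to 16. For UPPL1541 against UPPL primary tumours, 19 to 23 with 1 left out, against 23. For BBN963 against BBN primary tumours, against 4, 9 with a pseudocount of 10, 2 with no filter, 2 with no trend, 9 over all libraries, 1 without those libraries and 0 to 3. The cause was not tested. With the replicate number as a block, 20, 6 and 9 collagens were called between UPPL1541 and MB49, UPPL1541 and BBN963, and BBN963 and MB49 tumours; the numbers do not pair the samples. The most frequent low value stood for 2 to 19 reads in tumours and 1 in cultures, and its part in the values of low collagens was not tested.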
